A study of Homo sapiens with 6 samples.

Results

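The genes described here are those of the system that turns plasminogen into plasmin at the cell surface, namely the protease urokinase (PLAU), its receptor uPAR (PLAUR), tissue plasminogen activator (PLAT), the serpins SERPINE2 and SERPINB2 and the endocytic receptor LRP1, together with 2 intracellular serpins of other proteases, SERPINB6 and SERPINB8. They were chosen by name, with earlier results of these data known. Of the 8, 7 were found among the 15024 genes of the table, and SERPINB2 was not analysed here. Expression was measured by RNA sequencing in MDA-MB-231, an established line from a triple-negative breast tumour. All cells carried the non-targeting guide sgNT, had been kept for 14 days in 10 µM forskolin, an activator of adenylyl cyclase, and were CD44-positive when sorted. The 3 CD104high libraries came from cells with much CD104 (integrin beta 4), called a hybrid epithelial-mesenchymal population in the design text, and the 3 CD104low libraries from cells with little or no CD104, called mesenchymal there. No untreated cells and no MLL3-mutant cells were analysed here, so every value below is a value under forskolin, in a single line.

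In this system urokinase binds uPAR on the cell surface and cleaves plasminogen into plasmin, a protease that degrades fibrin and other matrix proteins and activates further enzymes. Serpins are inhibitors that trap a protease in a covalent complex, and LRP1 takes up complexes of urokinase, serpin and uPAR, which clears them and lets uPAR return to the surface. In breast cancer, high urokinase is known as a marker of invasive disease.

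Of the 7 genes, LRP1 was 1.91-fold higher and SERPINB6 1.24-fold higher in CD104high cells, and these were the 2 that passed the test. Urokinase, its receptor and tissue plasminogen activator differed between the groups by a factor of 1.11 or less and did not pass. SERPINB8 and SERPINE2 had lower means in CD104high cells and passed only in some forms of the test. The promoters of 4 of these genes are shown because they include both genes that rose and the genes with a match to AP-1, a family of transcription factors known to act on the urokinase system. Each is the stretch of 250 bases before a RefSeq transcription start (build GRCh38.p14), read 5′ to 3′ in the direction of transcription. Capitals mark matches, on either strand, to any of 7 motifs: the cAMP response element CRE (TGACGTCA), its core (TGACG), AP-1 (TGANTCA), the E-box bound by ZEB and SNAI factors (CACCTG), the GC box (GGGCGG), an interferon response core and the TATA box (TATAAA). A CRE always holds the CRE core, and matches to different motifs may share bases.
LRP1 (chr12:57128233-57128482, plus strand): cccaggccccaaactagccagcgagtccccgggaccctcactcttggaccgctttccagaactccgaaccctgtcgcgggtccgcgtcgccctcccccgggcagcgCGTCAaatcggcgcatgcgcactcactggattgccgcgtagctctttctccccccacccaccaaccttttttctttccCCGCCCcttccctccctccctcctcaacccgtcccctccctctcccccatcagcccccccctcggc
SERPINB6 (chr6:2971568-2971817, minus strand): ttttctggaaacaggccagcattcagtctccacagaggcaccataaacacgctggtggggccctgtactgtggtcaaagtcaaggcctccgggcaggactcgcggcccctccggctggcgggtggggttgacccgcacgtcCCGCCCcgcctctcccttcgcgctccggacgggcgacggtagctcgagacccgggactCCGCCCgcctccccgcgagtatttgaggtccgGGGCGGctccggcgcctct
SERPINB8 (chr18:63969831-63970080, plus strand): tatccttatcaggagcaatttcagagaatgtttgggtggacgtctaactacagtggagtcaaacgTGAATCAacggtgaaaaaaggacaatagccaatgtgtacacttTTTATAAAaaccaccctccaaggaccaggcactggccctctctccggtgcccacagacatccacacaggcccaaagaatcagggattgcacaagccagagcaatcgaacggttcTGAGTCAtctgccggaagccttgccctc
PLAUR (chr19:43670170-43670419, minus strand): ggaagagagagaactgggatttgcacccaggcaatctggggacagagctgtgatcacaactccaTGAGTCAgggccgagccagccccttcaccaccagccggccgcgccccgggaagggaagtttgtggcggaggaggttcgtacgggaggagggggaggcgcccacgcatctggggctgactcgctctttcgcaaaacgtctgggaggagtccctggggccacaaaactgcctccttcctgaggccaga

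LRP1 held 1 match to the CRE core, which 21.2% of all 35116 promoter windows of that length hold, and 1 GC box (42.6% of windows). The SERPINB6 window, the first of 4 in the table, held 3 GC boxes and no other motif of the 7. SERPINB8 held 2 AP-1 matches, which end 178 and 21 bases before the start. It also held 2 overlapping TATA matches, 136 and 134 bases before the start, and 10.7% of all windows hold at least 1. PLAUR held 1 AP-1 match, 179 bases before the start, and 6.57% of all windows hold at least 1. No window of a gene with expression values here held the full CRE (1.65% of windows) or the interferon response core (3.02%). PLAT had no window here and was not searched for motifs. Of the 2 PLAU windows, the first held none of the motifs and the other 3 GC boxes and 1 E-box, while both SERPINE2 windows held GC boxes alone. These are matches of letters and no measure of binding.

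The libraries held between 52088604 and 56958065 gene reads, recovered from the deposited values. A normalised read count is the number of reads of a gene divided by a size factor of its library. ITGB4, the gene of the sort marker, was 5.83-fold higher in CD104high (17659 ± 1766 against 3079 ± 743, SD, n = 3 each). Log2 fold changes are of CD104high over CD104low on the log2(value + 1) scale, with limma's standard error (SE) and a p adjusted over 14343 genes. With limma, 1730 genes (12.1%) were higher and 1625 (11.3%) lower at an adjusted p under 0.05, 23.4% in all. The total of 3355 dropped to 1816 without CD104high replicate 1 and to 2021 without CD104high replicate 2. All 6 markers listed for the line were in the table, at summed values of 191779 to 195189 in CD104high and 175698 to 185879 in CD104low, with no overlap. Of these 6, FN1 (fibronectin) was 1.73-fold higher (adjusted p = 0.00781) and VIM, AXL, ZEB1, CD44 and MSN did not pass. CD44 (log2 fold change −0.16, adjusted p = 0.113) and MSN (−0.21, adjusted p = 0.099) went against the sum, lower in CD104high with no overlap. The groups overlapped for VIM (0.07), AXL (0.07) and ZEB1 (−0.01). The 4 of 7 luminal epithelial markers in the table summed to 106611 to 109637 in CD104high and 86760 to 101153 in CD104low, also with no overlap, and KRT19 was 1.32-fold higher (adjusted p = 0.00194), while GATA3, KRT8 and KRT18 did not pass. The 6 fibroblast markers summed to 5183 to 7575 in CD104high and 3423 to 5289 in CD104low, ranges that overlap. Of them COL1A2 was 2.82-fold higher (1456 ± 334 in CD104high against 541 ± 250 in CD104low, SD, n = 3 each, limma adjusted p = 0.00402), whereas LUM (log2 fold change 2.22, adjusted p = 0.0591), PDGFRB (0.62, adjusted p = 0.128), COL3A1 (−0.84, adjusted p = 0.0533) and COL1A1 (0.09, adjusted p = 0.65) did not pass, and DCN, at 1.99 to 4.94 in CD104high and 1.97 to 3.88 in CD104low, was too low to test. The 2 of 4 endothelial markers in the table summed to 60.7 to 130 in CD104high and 88.6 to 114 in CD104low. Of 6 leukocyte markers 0 were among the rows analysed; every value in the table stands for at least 1 read. The part of other cells in the results was not tested. In sorted bulk samples, fewer cells that express a gene and less RNA per cell cannot be told apart.

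**Figure D1:**
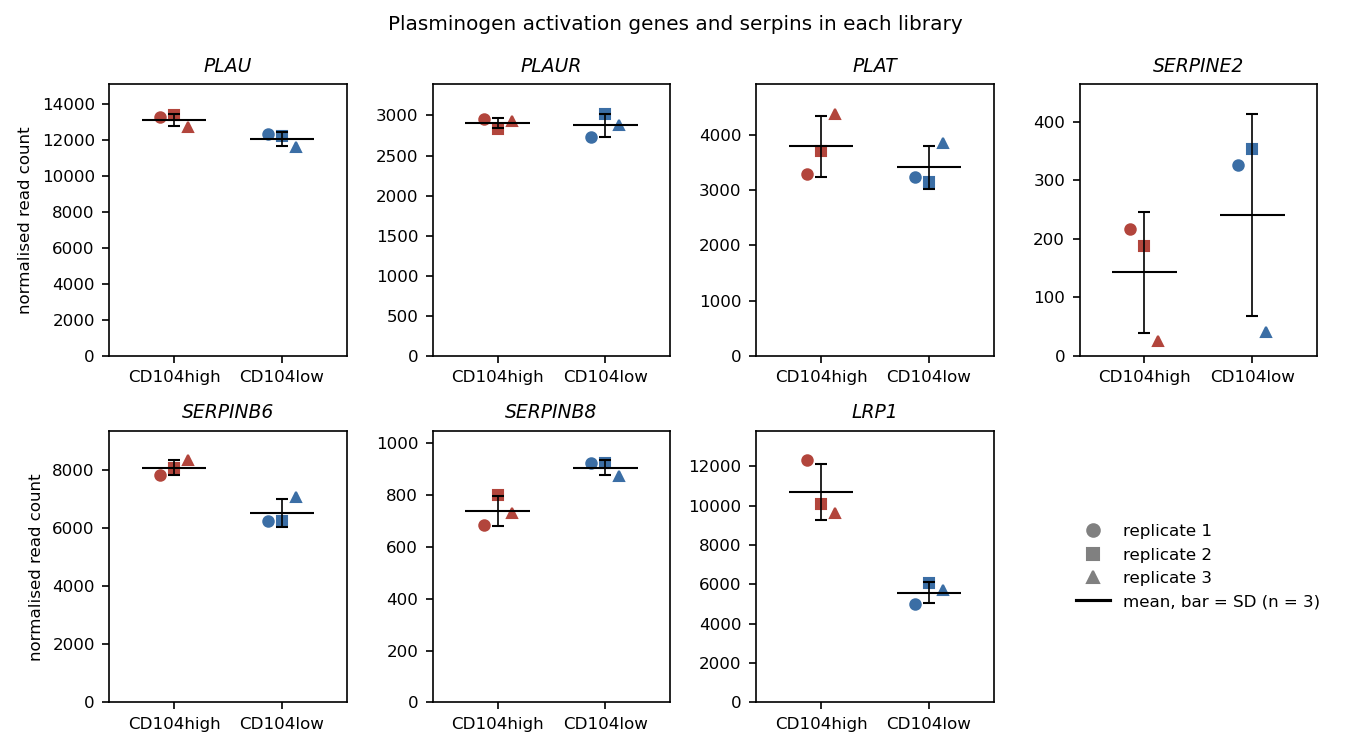
Normalised read count (y axis, from 0) of each of the 7 genes in the 3 CD104high libraries (left) and the 3 CD104low libraries (right); symbols mark the replicate number, the line is the mean and the bar the SD. LRP1, SERPINB6 and PLAU, of which PLAU did not pass the test, lie higher in all 3 CD104high libraries. SERPINB8 lies lower there, and SERPINE2 is far lower in both libraries numbered 3.

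The levels of the genes were compared per kilobase (kb) of principal transcript. PLAU was highest, at 5662 ± 145 normalised reads per kb in CD104high and 5201 ± 163 in CD104low. PLAUR followed with 1877 ± 41.8 in CD104high and 1858 ± 94.9 in CD104low, well below its ligand. PLAT (1159 to 1619 over the 6 libraries) and SERPINB6 (1108 to 1484) overlapped, and these neighbours changed places when all annotated exons were counted. LRP1, with a long transcript of 14.9 kb, lay below them per kb, at 717 ± 96.0 in CD104high and 375 ± 36.0 in CD104low. SERPINB8 had 213 ± 17.0 in CD104high and 261 ± 8.35 in CD104low, and SERPINE2 was lowest with 65.1 ± 47.1 in CD104high and 110 ± 79.0 in CD104low.

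LRP1 (ENSG00000123384.14; chromosome 12, 57128493 to 57213351, plus strand of GRCh38) had normalised read counts of 12313, 10076 and 9650 in CD104high replicates 1 to 3, against 5001, 6056 and 5695 in CD104low replicates 1 to 3. The lowest CD104high library lay well above the highest CD104low library. The log2 fold change was 0.93 (SE 0.10, 95% interval 0.70 to 1.16, limma adjusted p = 0.000447), or 1.91-fold, and LRP1 was higher in 3 of 3 same-numbered pairs. Pair 1 differed most, by 1.3 on the log2 scale, and pairs 2 and 3 by 0.73 and 0.76. The call held in 16 of 16 alternatives, with adjusted p values of 7.79e-15 to 0.0144 and log2 fold changes of 0.82 to 1.02. In the authors' deposited table LRP1 stands at 0.94 on the log2 scale, with an adjusted p of 1.64e-07. The annotated exons of LRP1 share 59 bases with those of STAT6 on the other strand, 0.283% of its exonic bases. STAT6 was itself 1.22-fold higher (6793 ± 43.2 in CD104high against 5577 ± 210 in CD104low, limma adjusted p = 0.0097), with no overlap of the groups.

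PLAUR (ENSG00000011422.12; chromosome 19, 43646095 to 43670547, minus strand), which anchors urokinase to the membrane by a lipid tail, had 2956, 2833 and 2929 normalised reads in CD104high and 2727, 3021 and 2882 in CD104low. The groups overlapped, and CD104low held both the highest and the lowest library. The log2 fold change was 0.02 (SE 0.07, 95% interval −0.14 to 0.17, adjusted p = 0.896), so that differences beyond 1.13-fold higher lay outside the interval. Within a library, LRP1 had 3.29 to 4.17 reads per PLAUR read in CD104high and 1.83 to 2.01 in CD104low, with no overlap. These ratios are not corrected for length. Per kb LRP1 lay below PLAUR, at 717 against 1877 in CD104high and 375 against 1858 in CD104low.

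PLAU (ENSG00000122861.16; chromosome 10, 73909177 to 73917497, plus strand), the activator that uPAR binds, had 13289, 13380 and 12756 normalised reads in CD104high, against 12346, 12227 and 11638 in CD104low. All 3 CD104high libraries lay above all 3 CD104low libraries, and each pair differed by nearly the same amount, 0.11, 0.13 and 0.13 on the log2 scale. The log2 fold change of 0.12 (SE 0.06, 95% interval −0.01 to 0.26) nevertheless did not pass (adjusted p = 0.175, and 0.112 to 0.428 over 16 alternatives). C10orf55, on the other strand, covers 31.1% of the annotated exonic bases of PLAU. C10orf55 averaged 89.9 ± 5.54 in CD104high and 90.7 ± 13.3 in CD104low, far below the level of PLAU. The strand setting is not given, so how reads from the shared bases were counted cannot be told.

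PLAT (ENSG00000104368.18; chromosome 8, 42175233 to 42207724, minus strand), the activator best known for dissolving clots, had 3283, 3704 and 4381 normalised reads in CD104high and 3243, 3137 and 3857 in CD104low. The groups overlapped, and replicate 3 was the highest library of each group. Relative to the mean of replicates 1 and 2, replicate 3 was 1.26-fold higher in CD104high and 1.21-fold higher in CD104low. The log2 fold change was 0.15 (SE 0.11, 95% interval −0.11 to 0.40, adjusted p = 0.384, and 0.130 with the replicate number as a block).

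**Figure D2:**
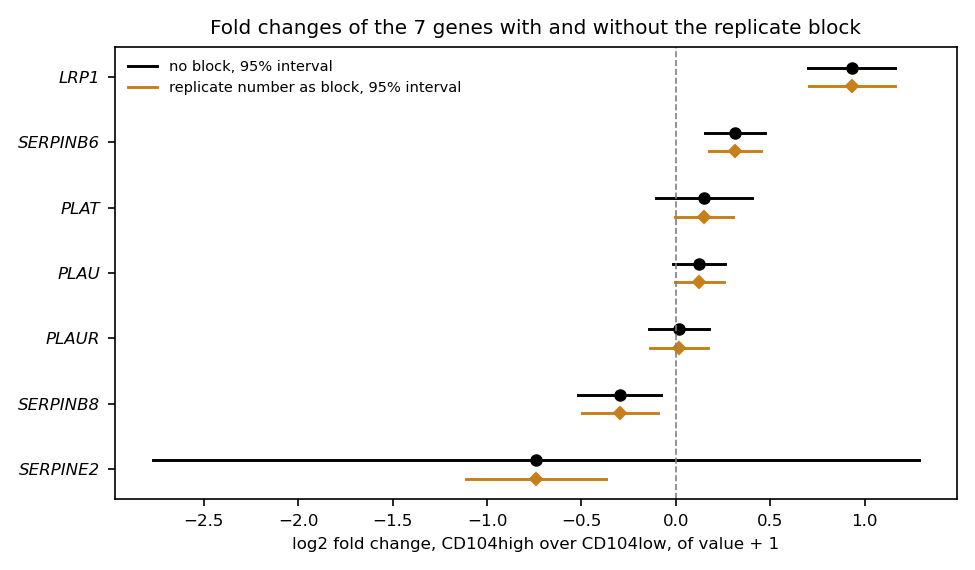
Log2 fold change of CD104high over CD104low (x axis, on the value + 1 scale) for each gene, with 95% intervals from limma without a block (black circles) and with the replicate number as a block (orange diamonds). LRP1 and SERPINB6 lie above 0 in both fits, and the interval of SERPINE2 narrows to −1.11 to −0.37 with the block, against −2.77 to 1.29 without it.

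SERPINE2 (ENSG00000135919.13; chromosome 2, 223975112 to 224039319, minus strand) encodes protease nexin-1, a secreted inhibitor of thrombin, urokinase and tissue plasminogen activator. It had 216, 188 and 24.7 normalised reads in CD104high, against 327, 354 and 41.2 in CD104low. Both libraries numbered 3 were far below the others, 7.88-fold below replicates 1 and 2 in CD104high and 8.09-fold in CD104low, where they rested on 24 and 40 reads. Of the 14343 tested genes, 7 were further down by this measure in both groups. Without a block SERPINE2 stood at −0.74 on the log2 scale (SE 0.91, 95% interval −2.77 to 1.29, adjusted p = 0.597), and 99.8% of tested genes had a smaller SE. Within same-numbered pairs SERPINE2 was lower in CD104high in 3 of 3, by −0.59, −0.91 and −0.72 on the log2 scale. With the number as a block the SE was 0.165 and the adjusted p 0.00799, and without both libraries numbered 3, an alternative chosen after seeing the data, the log2 fold change was −0.75 (adjusted p = 0.00528). Leaving out CD104high replicate 3 alone gave 0.25 (adjusted p = 0.842), with CD104low replicate 3 still in the fit. What set the libraries numbered 3 apart was not tested.

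SERPINB6 (ENSG00000124570.20; chromosome 6, 2948159 to 2972165, minus strand) encodes an intracellular serpin that inhibits cathepsin G. It had 7821, 8073 and 8340 normalised reads in CD104high, against 6226, 6255 and 7062 in CD104low. The groups did not overlap, and SERPINB6 was higher in 3 of 3 pairs. The log2 fold change was 0.31 (SE 0.07, 95% interval 0.15 to 0.47, limma adjusted p = 0.0121), or 1.24-fold. The call held in 15 of 16 alternative fits and ended when limma was run with no trend of variance on level (adjusted p = 0.0511), the highest of adjusted p values that reached down to 0.0011. In the main fit it did not pass the stricter threshold of 0.01, which is not among the 16. The authors' deposited table gives 0.31 and an adjusted p of 0.000567.

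SERPINB8 (ENSG00000166401.15; chromosome 18, 63969925 to 64019779, plus strand) encodes an intracellular serpin that inhibits furin. Its normalised reads were 684, 801 and 732 in CD104high, against 924, 924 and 873 in CD104low. No library of one group reached the other, and all 3 pairs were lower in CD104high, by −0.43, −0.21 and −0.26. The log2 fold change was −0.30 (SE 0.10, 95% interval −0.52 to −0.08) and missed the threshold with limma (adjusted p = 0.0541). It passed with the number as a block (adjusted p = 0.0303), with edgeR and TMM (0.0493), with DESeq2 (0.032) and in the authors' deposited table (0.0263). HMSD, which shares 370 exonic bases with SERPINB8 on the same strand, had 235 ± 1.80 in CD104high and 285 ± 13.8 in CD104low (adjusted p = 0.156), and reads from the shared bases cannot be assigned to either gene.

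**Figure D3:**
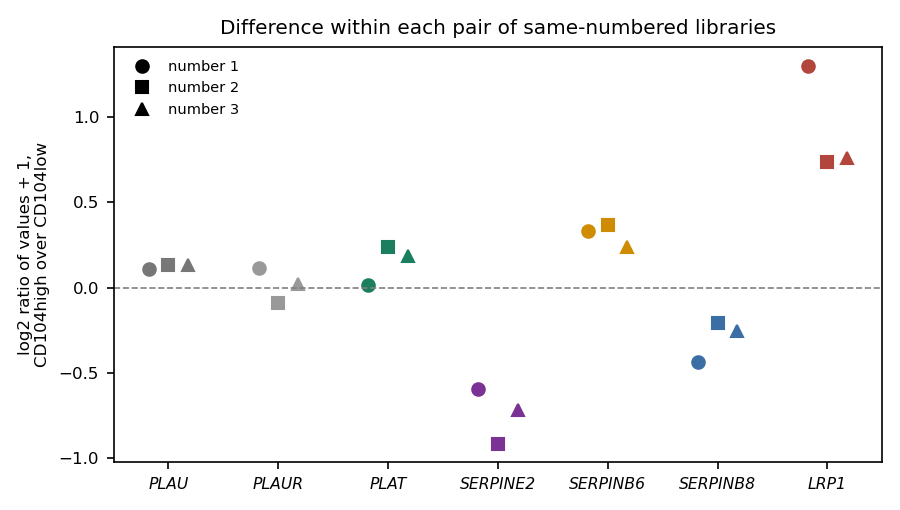
Log2 ratio of CD104high over CD104low (y axis, values + 1) within each pair of libraries that carry the same replicate number, for the 7 genes along the x axis. LRP1, SERPINB6, PLAU and PLAT lie above 0 and SERPINB8 and SERPINE2 below 0 in all 3 pairs, and PLAUR lies on both sides.

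With limma, 2 of the 7 genes were higher and 0 lower, against 12.1% and 11.3% of all tested genes. At an unadjusted p under 0.05, 2 were higher and 1 lower, where 36.9% of all genes passed (18.7% higher, 18.2% lower). EdgeR with TMM called 2 higher and 1 lower, against 23.3% of all genes (11.8% higher, 11.6% lower). EdgeR with DESeq2 size factors called 2 higher and 0 lower, against 23.3% (11.8% higher, 11.5% lower), and DESeq2 2 higher and 1 lower, against 27.6% (14.2% higher, 13.5% lower). With the replicate block 2 were higher, LRP1 and SERPINB6, and 2 lower, SERPINE2 and SERPINB8, against 32.8% of all genes (17.4% higher, 15.4% lower). Limma with no trend called 1 of the 7, LRP1, against 15.2% of all genes, and a threshold of 0.01 also LRP1 alone, against 10% of all genes. With each library left out, 2 of the 7 were called every time, against 12.7%, 14.1% and 17.9% of all genes without CD104high replicates 1, 2 and 3, and 19.3%, 16.1% and 23.1% without CD104low replicates 1, 2 and 3. Without both libraries numbered 3 it was 3 of the 7, against 22.5%. The groups did not overlap for 4 of the 7, 3 higher and 1 lower, against 41.2% of all genes (19.9% higher, 21.3% lower). The median log2 fold change of the 7 was 0.12, beside 0.01 over all tested genes.

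The libraries' profiles of the 2 genes that passed were set beside those of 7167 well-expressed genes, by the root mean square difference of log2 values centred on each gene's mean over the 6 libraries. Closest to LRP1 were CDON, a co-receptor of hedgehog signalling, with a difference of 0.078, and ABCA7, a lipid transporter, with 0.087, where LRP1 itself varied by 0.485 around its mean. Closest to SERPINB6 were IMPACT (0.016), a regulator of translation under stress, and CAP2 (0.031), an actin-binding protein, where SERPINB6 varied by 0.169. The measure only ranks likeness over 6 libraries.

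Among 9 other serpins that were tested and are reported here, 4 were higher and 0 lower, against 12.1% and 11.3% of all tested genes. Their median log2 fold change was 0.36, beside 0.01 over all tested genes. At an unadjusted p under 0.05, 5 were higher and 0 lower (18.7% and 18.2% of all genes). With edgeR and TMM it was 3 and 0 (11.8% and 11.6%), and with DESeq2 4 and 0 (14.2% and 13.5%). With the replicate block 5 were higher and 0 lower, against 17.4% and 15.4% of all genes. The added gene was SERPINF2, which encodes the plasmin inhibitor alpha-2-antiplasmin (1.68 on the log2 scale, adjusted p = 0.0378) and is named after its values were seen. SERPINB1, an intracellular inhibitor of neutrophil proteases, was 1.4-fold higher (adjusted p = 0.00114), and SERPINB9, an inhibitor of granzyme B, 1.28-fold higher (adjusted p = 0.0127, but 0.0513 without CD104high replicate 1). SERPINB7 was 3.17-fold higher at a low level, 33.6, 29.8 and 32.9 in CD104high against 19.4, 9.85 and 4.12 in CD104low. Its call (adjusted p = 0.0372) ended without any 1 library but CD104low replicate 1, at adjusted p values of 0.0669 to 0.117. SERPINA1, which encodes alpha-1-antitrypsin, was the remaining higher gene, at 138, 129 and 123 in CD104high against 113, 27.6 and 39.1 in CD104low (adjusted p = 0.043). The call of SERPINA1 ended without any 1 library but CD104low replicate 1 as well, at adjusted p values of 0.0675 to 0.133. SERPINH1, a collagen chaperone and the highest of these serpins by mean, did not pass (log2 fold change −0.17, adjusted p = 0.339). The count of 4 called serpins dropped to 1 without CD104high replicate 1, where 12.7% of all genes were called. It was 2 without CD104high replicate 2 (14.1%) or 3 (17.9%) or CD104low replicate 2 (16.1%) or 3 (23.1%).

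**Figure D4:**
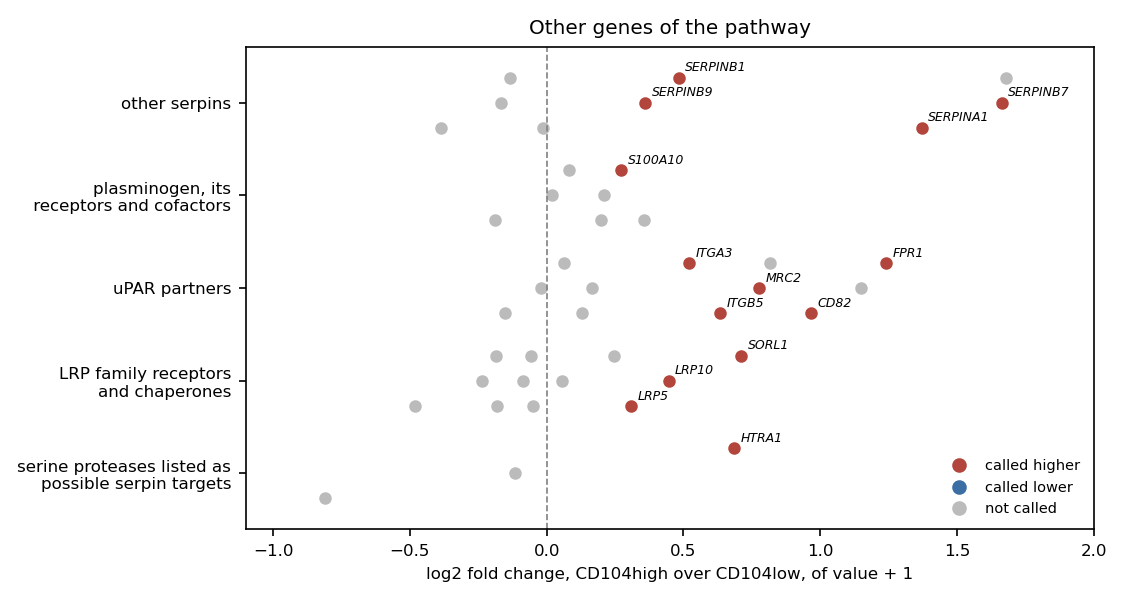
Log2 fold change of CD104high over CD104low (x axis, value + 1) of the other tested genes of the pathway, 1 point per gene in 5 lists down the page, with genes called higher in red and others in grey. The called partners of uPAR lie between 0.52 and 1.24, and 0 of the genes shown were called lower, against 11.3% of all tested genes.

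Of 7 tested plasminogen receptors and cofactors, 1 was higher and 0 lower, against 12.1% and 11.3% of all tested genes. The median was 0.20, beside 0.01 over all tested genes. The higher gene was S100A10, which with annexin A2 binds plasminogen and tissue plasminogen activator at the cell surface, at 26540, 27072 and 25543 in CD104high against 23079, 20308 and 22204 in CD104low. S100A10 was 1.21-fold higher (adjusted p = 0.0203), and its call ended without CD104high replicate 1 (0.0715), CD104high replicate 2 (0.0782) or CD104low replicate 2 (0.0839). The list then had 0 calls, where 12.7%, 14.1% and 16.1% of all genes were called. It had 2 without CD104low replicate 1 (19.3%) or 3 (23.1%). ANXA2 itself (log2 fold change 0.08, adjusted p = 0.511) and ENO1, a glycolytic enzyme that also binds plasminogen (0.02, adjusted p = 0.889), did not pass. With the replicate block 3 were higher and 0 lower, against 17.4% and 15.4% of all genes. The added genes were THBD, the thrombin receptor thrombomodulin (0.36, adjusted p = 0.00888), and CTSB, a cathepsin that activates pro-urokinase (0.21, adjusted p = 0.0241), both named after their values were seen. At an unadjusted p under 0.05, 3 were higher and 0 lower (18.7% and 18.2% of all genes). With edgeR it was 1 and 0 (11.8% and 11.6% with TMM), and with DESeq2 2 and 0 (14.2% and 13.5%).

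Of 12 tested partners of uPAR, 5 were higher and 0 lower, against 12.1% and 11.3% of all tested genes. At an unadjusted p under 0.05 it was 7 and 0 (18.7% and 18.2% of all genes). It was 5 and 0 with edgeR (11.8% and 11.6% with TMM) and with DESeq2 (14.2% and 13.5%). With the replicate block 7 were higher and 0 lower, against 17.4% and 15.4% of all genes. The added genes were VTN, the matrix protein vitronectin that uPAR binds (1.15 on the log2 scale, adjusted p = 0.00324), and ITGB3, an integrin subunit (0.82, adjusted p = 0.0134), both named after their values were seen. The median log2 fold change was 0.58, beside 0.01 over all tested genes. FPR1, a formyl peptide receptor that responds to cleaved uPAR, had 896, 953 and 749 in CD104high against 372, 399 and 325 in CD104low, and was 2.36-fold higher (adjusted p = 0.00037). CD82, a tetraspanin, was 1.95-fold higher (adjusted p = 0.000991) and MRC2, a collagen receptor that joins uPAR and urokinase on the surface, 1.71-fold higher (adjusted p = 0.00136). The integrin subunits ITGB5 and ITGA3 were 1.55-fold and 1.43-fold higher (adjusted p = 0.000326 and 0.00194). ITGA3, at 131749 in the highest CD104high library against 88856 in the highest CD104low library, was also 1 of the 2 genes of the list with the highest mean, with ITGB1, which did not pass (0.13, adjusted p = 0.302). These 5 genes were called in 16 of 16 alternatives each.

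Of 12 other tested LRP family receptors and their chaperones, 3 were higher and 0 lower, against 12.1% and 11.3% of all tested genes. The median was −0.05, beside 0.01 over all tested genes. At an unadjusted p under 0.05, 3 were higher and 2 lower (18.7% and 18.2% of all genes). With edgeR it was 3 and 0 (11.8% and 11.6% with TMM), and with DESeq2 3 and 1 (14.2% and 13.5%). SORL1, an intracellular sorting receptor, was 1.64-fold higher (3959, 3981 and 3123 in CD104high against 2078, 2443 and 2207 in CD104low, adjusted p = 0.00178). LRP10 was 1.36-fold higher (adjusted p = 0.00836) and LRP5, a Wnt co-receptor, 1.24-fold (adjusted p = 0.0256). The call of LRP5 ended without CD104high replicate 1 (0.102), CD104high replicate 2 (0.0728), CD104low replicate 2 (0.0582) or CD104low replicate 3 (0.0691). With the replicate block 2 were also lower, against 15.4% of all genes. These were LRP4 (−0.48, adjusted p = 0.00652) and LRPAP1, the chaperone that keeps LRP1 from binding ligands early (−0.23, adjusted p = 0.0213), both named after their values were seen. Of 3 serine proteases tested as possible targets of these serpins, 1 was higher and 0 lower, against 12.1% and 11.3% of all tested genes. The counts were the same at an unadjusted p under 0.05 (18.7% and 18.2% of all genes). They were also the same with edgeR (11.8% and 11.6% with TMM) and DESeq2 (14.2% and 13.5%). HTRA1, a secreted protease, was 1.61-fold higher (32436, 38694 and 31539 in CD104high against 21901, 22704 and 19124 in CD104low, adjusted p = 0.00131), while FURIN, the protease that SERPINB8 inhibits, did not pass (−0.12 on the log2 scale, SE 0.06, adjusted p = 0.183).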

How the data were processed

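The 6 libraries, 3 per group, were made from total RNA of MDA-MB-231 cells after sorting. Per the submitters' processing notes, the tools included STAR 2.4.0, FastQC, DESeq2 1.30.1 and featureCounts 1.5.0, and the build was GRCh38.p13 (hg38). The strand setting is not given in the sources used here. The authors deposited a normalised signal per gene and library, gene read counts divided by a size factor, and beside it a log2 fold change with its error. Their table also has p-values, raw and adjusted, and the authors' test score. Whole reads were recovered from the size of 1 read in each library (0.970 to 1.03), with 100% of values within 0.1 of a whole number. Recovery is less certain for CD104high replicate 2, where the size of 1 read is close to 1, so count tests are alternatives.

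The genes and lists were chosen with earlier results of these data known, and 2 further genes of the lists are not reported here. After removal of 681 genes that reached a value of 10 in fewer than 3 of the 6 libraries, 14343 genes were fitted on the log2(value + 1) scale, which understates changes of low genes. The fit used limma 3.58.1 in R 4.3.3, letting variance follow the level, with two-sided p-values adjusted by Benjamini-Hochberg and called under 0.05. Alternatives were pseudocounts of 0.1 and 5, no filter, a threshold of 0.01, limma without the trend, each library left out, the replicate number as a block, edgeR 4.0.16 with TMM or DESeq2 size factors and DESeq2 1.42.0 on recovered reads, and scaling by total reads. The fits were tested on simulated data. Genes named were the members, ITGB4, up to 4 called genes with the smallest p and the 2 with the highest mean of each list, and the 2 closest profiles of each called member.

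For same-numbered samples, the correlations of their deviations from group means were 0.166, 0.317 and 0.477 for numbers 1 to 3. Across numbers, CD104high 1 with CD104low 2 had 0.093 and CD104high 2 with CD104low 1 had 0.129. Number 3 with number 1 or 2 of the other group had −0.373 to −0.222. Numbers 1 and 2 were thus less clearly paired than number 3. Deviations within a group cancel out by construction, so the negative values are not separate evidence of pairing. The main fit used no pairs, and the number entered as a block only in an alternative. Any pairing comes from the data, as the labels say nothing of a shared batch. Within each group the libraries differed beyond counting noise (chi-square per gene of 18.0 to 42.8). The labels call replicates biological without saying whether cultures were separate, so the p-values speak only of the spread among these libraries, which may be technical. Spans and lengths are from GENCODE 29 (GRCh38), matched without identifier version for 14994 genes and all 7 members. Promoters are from RefSeq on GRCh38.p14, with windows for 6 of the 7 analysed genes, all but PLAT.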

Additional observations from a re-analysis of the deposited data

How the results depend on the processing

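The call of LRP1 held in all 16 alternatives run, and the median log2 fold change of all genes was at most 0.0282 under the alternatives run. Of the other genes of the set, PLAU, PLAUR and PLAT were called in 0 of 16. With each library left out in turn, log2 fold changes were 0.0967 to 0.144 for PLAU, −0.0222 to 0.0515 for PLAUR, 0.0374 to 0.245 for PLAT, −1.75 to 0.252 for SERPINE2, 0.281 to 0.372 for SERPINB6, −0.358 to −0.244 for SERPINB8 and 0.825 to 1.00 for LRP1. PLAUR was −0.0222 without CD104low replicate 1, and SERPINE2 0.252 without CD104high replicate 3. With the replicate block, SERPINE2 (−0.741) and SERPINB8 (−0.298) passed, and the block changed no call of the other 5 genes of the set. Calls of the 7 genes rose to 4, while calls over all genes rose from 23.4% to 32.8%. Calls with the block were 5 for other serpins, 3 for plasminogen receptors and cofactors, 7 for uPAR partners and 5 for the LRP family. Without both libraries numbered 3, SERPINE2 (−0.754) passed and the plasminogen list had 2 calls, against 22.5% of all genes. SERPINB8 passed with edgeR and TMM (−0.30) and DESeq2 (−0.295), and DESeq2 gave the plasminogen list 2 calls, against 27.6% of all genes. In limma without the trend SERPINB6 (0.312) lost its call. Calls were then 2173 over all genes (15.2%), 1 of the 7, 1 other serpin, 0 of the plasminogen list and 1 of the LRP family. At a threshold of 0.01 calls were 1436 (10%), 1, 1 and 0 for all genes, the 7, other serpins and the plasminogen list. With each library left out, calls were 1816 to 3313 over all genes (12.7% to 23.1%), 2 to 2 of the 7, 1 to 4 other serpins and 0 to 2 of the plasminogen list. The cause of these changes was not tested. Of the genes of the set, SERPINE2 rested on the fewest reads, 24 in CD104high replicate 3. SERPINB2 was not analysed here and has no value under any alternative.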
